A study of Mus musculus with 144 samples.

Results

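White adipose tissue of control mice was compared between 24 and 6 months of age in 12 RNA-seq libraries, out of 144 libraries that the study made from 6 tissues. All 12 came from animals of the CreER genotype, which carry a tamoxifen-activated Cre recombinase and serve as controls for animals of the nmrHAS2 genotype, whose transgene encodes the naked mole-rat hyaluronan synthase 2. The members were chosen by label alone: 3 libraries from old females and 3 from old males (24 months), and 3 from young females and 3 from young males (6 months). Both sexes were weighted equally, so that the change with age is the mean of the female and the male log2 difference, old minus young. The labels name neither the fat depot nor the strain, the tamoxifen schedule or which animal gave each library. The p-values therefore describe only how far these samples spread, which may in part be technical. The study collected the tissues to learn how nmrHAS2 mice differ from controls over the lifespan, and the control animals describe the ageing against which that question is asked.

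White adipocytes store triglyceride that they make from imported fatty acids and from glucose, release it by lipolysis, and secrete hormones such as leptin and adiponectin. Around them lie progenitor cells and fibroblasts that lay down a collagen and hyaluronan matrix, blood and lymphatic vessels, and resident macrophages and lymphocytes. With age, visceral fat is known to lose lipogenic capacity and to gather lymphocytes, among them B cells in fat-associated lymphoid clusters. In bulk tissue, fewer cells of a type and less RNA per cell cannot be told apart.

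The libraries held 28.9 to 83.5 M counts, and 23275 to 26787 genes had at least 1 count. Values below are CPM (counts scaled to the same library total) after TMM scaling, changes are log2 differences with their standard error (SE), and a gene is said to rise or fall where its adjusted p in edgeR's quasi-likelihood test was under 0.05. The sex labels were matched by sex-linked genes in all 12 libraries. The naked mole-rat transcript stood at 0.0984 to 1.54 CPM in the CreER libraries and at 0.691 to 6.17 CPM in the nmrHAS2 white fat libraries. The 3 young CreER females, at 0.643 to 1.54 CPM, overlapped the nmrHAS2 range, and the other 9 CreER libraries, at 0.0984 to 0.398 CPM, did not. Adipocyte markers were abundant in every library, with a sum of 30772 to 80865 CPM over 18 genes. Young female 3 held 1131 CPM of ovary and uterus markers, against 36.0 to 134 CPM in the other 11 libraries. Young male 2 held 461 CPM of male reproductive tract markers, against 1.23 to 50.1 CPM elsewhere. Old females 2 and 3 were the closest pair within a group, with an SD of the log2 difference over genes of 0.16, against a median of 0.349 for the 12 pairs. The labels do not say whether old females 2 and 3 came from the same animal.

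The libraries also differed in a property that no label names. RNAs that lack a poly(A) tail (Rn7sk, Rmrp, Rpph1, Rn7s1 and Rn7s6) took 11.8 to 18.2% of the counts in 9 libraries and 0.00164 to 0.00239% in the 3 young males. With a limit of 1%, old and young females share this library kind, whereas in males age and library kind cannot be told apart. In females a further split exists: 63.7 to 67.9% of the non-zero values had a fractional part in the young females and in old female 3, against 27.6% in old females 1 and 2. Changes below are over both sexes unless a sex is named, and for some genes old female 3 is set against the 3 young females, which share both properties with it. Of the 144 named genes 39 kept their sign but not their call in females alone, 27 in males alone and 86 in old female 3. Whether library kind is a cause of any single change in males was not tested.

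**Figure D1:**
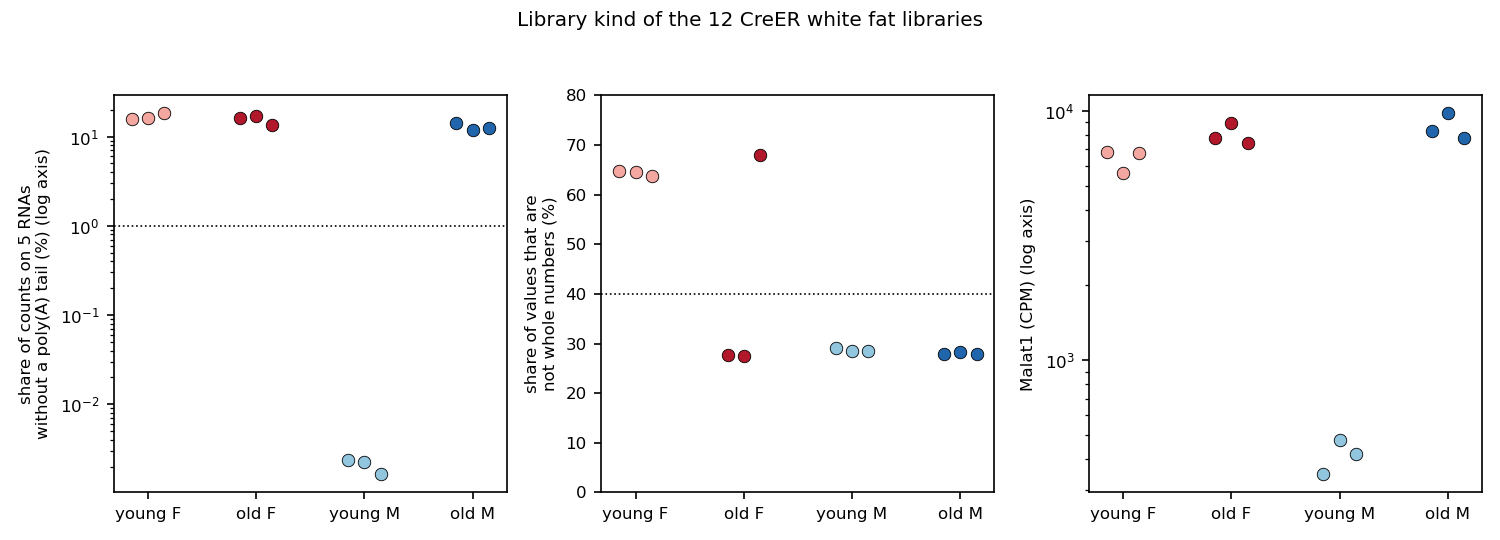
Share of counts taken by 5 RNAs that lack a poly(A) tail (log axis, limit at 1%), share of values that are not whole numbers (limit at 40%) and level of Malat1 (log axis), one point per CreER white fat library. The 3 young males lie below 0.00239% on the left and below 480 CPM on the right, and old female 3 is the old library that shares the middle range with the young females.

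Ageing was broad. Of 21109 genes tested, 5289 (25.1%) rose and 5147 (24.4%) fell with age, which is 10436 genes in all (49.4%). Of these, 9434 (90.4%) had the same sign in both sexes. The genes were called on the mean of the female and male changes, which favours a shared sign, so that share is no separate check. A log2 change of at least 1 in size was reached by 2979 of the rises (14.1% of all genes) and 1355 of the falls (6.42%). Within females alone 2065 rose (9.78%) and 2495 fell (11.8%), 4560 in all (21.6%). Within males alone 4555 rose (21.6%) and 4336 fell (20.5%), 8891 in all (42.1%). The test of the difference between the sexes called 3820 genes (18.1%), of which 2333 (11.1%) had the higher change in males and 1487 (7.04%) the lower. The strictest common ground was smaller: 819 genes (3.88%) rose and 1425 (6.75%) fell in each sex tested alone, while 216 were called in both sexes with opposite signs. In 1136 genes (5.38%) all 6 old libraries lay above all 6 young ones, and in 1171 (5.55%) all lay below. Old female 3 against the young females called 726 rises (3.44%) and 355 falls (1.68%), and 4541 of the genes called in females (99.6%) kept their sign there. That count shares this old library and the young females with the female comparison, so it is no independent check. The female counts rest on few libraries: without old female 2, 752 rose and 737 fell, and without young female 2, 961 rose and 1168 fell.

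**Figure D2:**
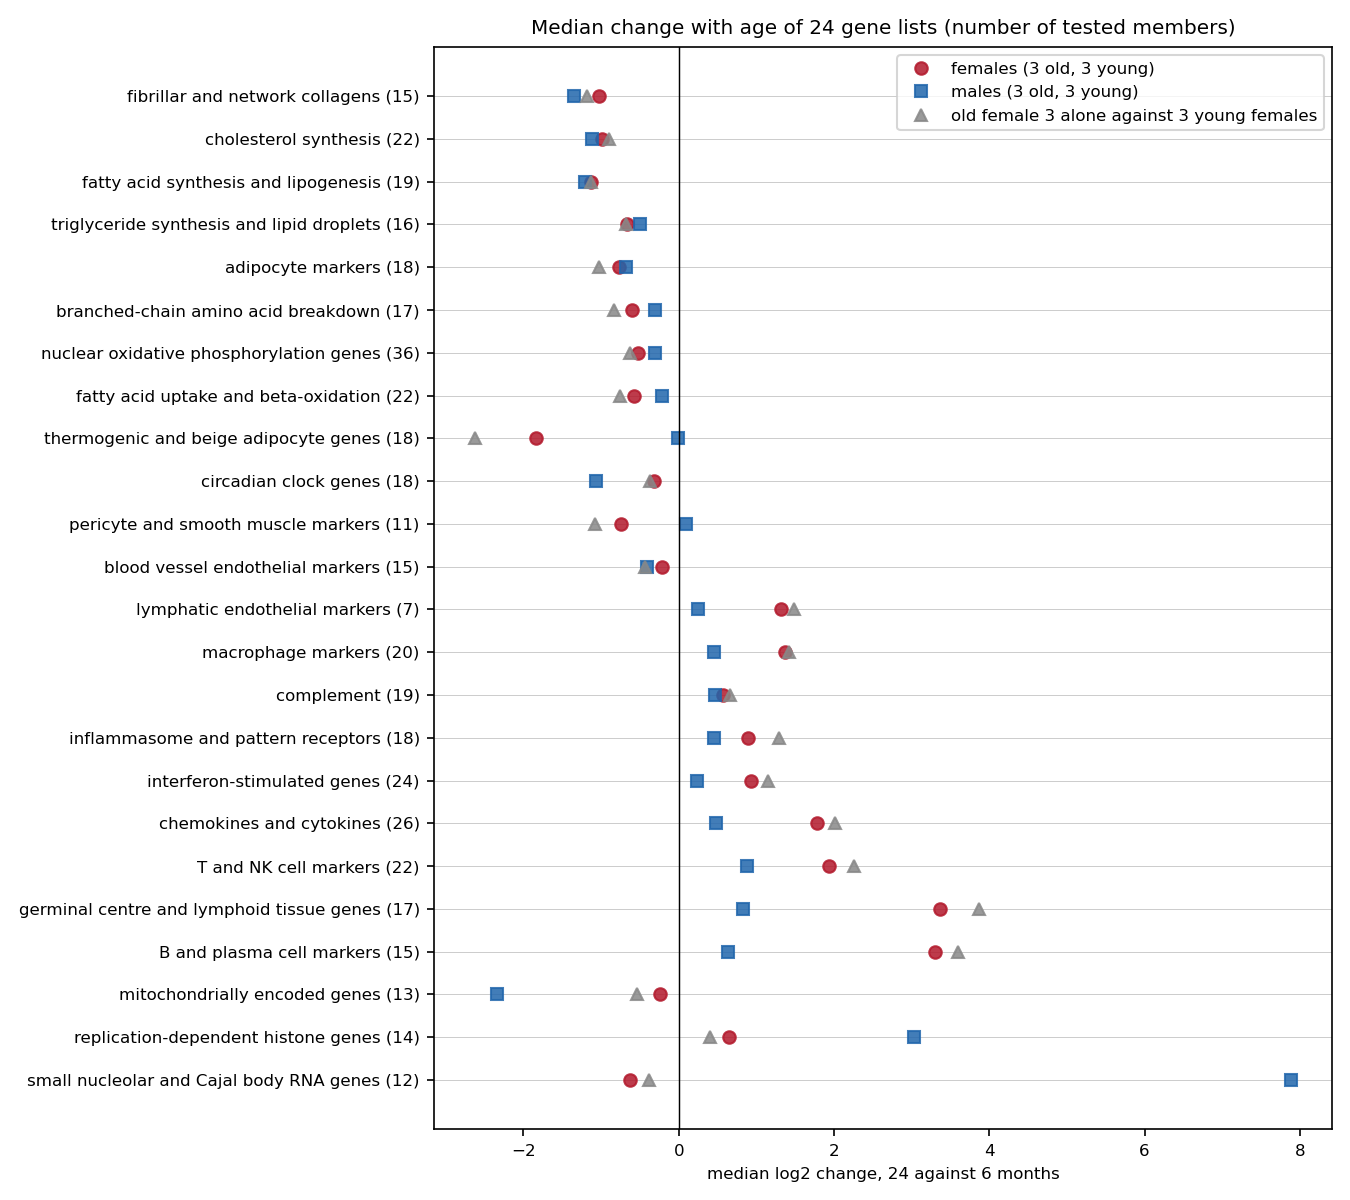
Median log2 change with age over the tested members of 24 gene lists, in females, in males and in old female 3 alone against the 3 young females. Lipid, cholesterol and collagen genes lie left of 0 in all 3, immune lists lie right of 0, and the mitochondrially encoded, histone and small nucleolar RNA lists lie farther from 0 in males than in females.

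Transcripts for several steps of triglyceride synthesis were lower in old fat, while synthesis itself was not measured. Of 16 tested genes of triglyceride synthesis and lipid droplets 10 fell and 1 rose (median log2 change -0.77, against -0.000544 over all genes). Dgat2, which catalyses the last step from diacylglycerol to triglyceride, stood at 1434, 2133 and 545 CPM in young females and 1233, 1578 and 2403 CPM in young males. In old females it was 135, 91.7 and 112 CPM and in old males 84.6, 107 and 209 CPM. Every old library was thus below every young one, and even the lowest young value (young female 3) exceeded the highest old value (old male 3). The log2 change was -3.65 (SE 0.58, adjusted p 7.01e-05), with -3.600 in females and -3.70 in males. Agpat2, which makes phosphatidic acid on the way to triglyceride, fell by 2.10 on the log2 scale (SE 0.36, adjusted p 0.000124), from 145 to 406 CPM in the young libraries to 57.9 to 75.0 CPM in the old. Mogat2, an acyltransferase that forms diacylglycerol and was singled out after its values were seen, fell from 7.98 to 23.1 to 0.112 to 1.73 CPM (log2 -4.28, SE 0.69, adjusted p 7.96e-05). Gpd1, which supplies the glycerol backbone, was 299 to 1144 CPM in young and 134 to 192 CPM in old libraries, again without overlap. With the split by non-whole values as a term, the female changes of Dgat2, Agpat2, Gpd1 and Mogat2 kept their sign and did not pass (-2.23, -1.26, -1.31 and -1.88, adjusted p 0.142, 0.165, 0.211 and 0.288).

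Most listed genes that make and desaturate fatty acids moved the same way, but the summed level of their list did not separate the ages. In the list of fatty acid synthesis and lipogenesis 13 of 19 tested genes fell and 1 rose. The median was -1.399 (-1.13 in females, -1.21 in males, -1.12 in old female 3). The summed level was 12579, 28596 and 10163 CPM in young females and 25813, 17627 and 17528 CPM in old females. In males it was 26514, 27704 and 21562 CPM in young and 6972.9, 24724 and 18424 CPM in old libraries. The ages overlapped in both sexes, and each old female lay above young females 1 and 3. The desaturase gene Scd2 was 214, 309 and 294 CPM in young females and 171, 373 and 398 CPM in young males, against 29.7, 37.1 and 36.1 CPM in old females and 37.7, 23.9 and 63.7 CPM in old males. No old library reached a young one, and the change was -2.95 (SE 0.45, adjusted p 4.62e-05). Pnpla3, a lipid droplet protein induced by feeding, fell from 43.2 to 189 to 8.16 to 17.0 CPM (log2 -3.27, adjusted p 9.99e-05). Srebf1 encodes the transcription factor SREBP-1, which drives lipogenic genes, and fell by 1.16 on the log2 scale (SE 0.20, adjusted p 0.000136), although old male 1 at 120 CPM passed young female 3 at 107 CPM. The names of both lists describe the direction of the pathway they build, not the amount of stored fat, which was not measured. The same term left the female changes of Scd2, Pnpla3 and Srebf1 at -1.76, -1.89 and -0.72 (adjusted p 0.112, 0.173 and 0.157), none of which passed.

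Several transcripts for uptake, breakdown and hormone output of adipocytes were lower as well, by smaller amounts. These activities themselves were not measured. Among the adipocyte markers 13 of 18 fell and 0 rose (median -0.74, females -0.77, males -0.68). The summed level of these markers was 37077 to 77872 CPM in young and 30772 to 56615 CPM in old females, and 58747 to 80865 CPM in young and 32616 to 47859 CPM in old males. It overlapped in females and did not in males, and its part in the changes of single adipocyte genes was not tested. Lpl, the lipase that frees fatty acids from circulating lipoproteins, was 6012, 7139 and 3404 CPM in young females and 9365, 8567 and 13317 CPM in young males. At 24 months it was 3033, 1559 and 1517 CPM in females and 1502, 2308 and 2304 CPM in males, with no overlap (log2 -1.90, SE 0.27, adjusted p 2.58e-05). Plin1, which coats lipid droplets, and Car3, a carbonic anhydrase abundant in adipocytes, fell by 1.23 and 1.15 on the log2 scale (adjusted p 0.000413 and 0.00172), and in both the groups overlapped through young female 3.

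The hormone genes were less uniform. Adiponectin (Adipoq) was 4285, 5011 and 2396 CPM in young females, 3389, 1324 and 1375 CPM in old females, 3183, 2576 and 3984 CPM in young males and 1567, 1990.0 and 1151 CPM in old males. The ages overlapped through old female 1, and the change was -0.995 (SE 0.26, adjusted p 0.00359). Leptin (Lep) was 1952, 1846 and 1300.3 CPM in young and 1806, 574 and 607 CPM in old females, and 2378, 2668 and 3936 CPM in young and 336, 354 and 1318 CPM in old males. Its change over both sexes was -1.47 (SE 0.44, adjusted p 0.00952), with -2.16 in males (adjusted p 0.0101) and -0.77 in females, where it did not pass (adjusted p 0.374). The test of the difference between the sexes did not pass either (difference -1.39, SE 0.86, adjusted p 0.301). Of 11 adipokines in all, 6 fell and 1 rose. Apelin (Apln), a peptide that adipocytes secrete under insulin, fell by 1.77 on the log2 scale (adjusted p 0.000136), and chemerin (Rarres2), a chemoattractant for leukocytes, by 0.70 (adjusted p 0.000687).

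Lipolysis and insulin-driven glucose uptake gave mixed lists with clear single genes. Over all genes 24.4% fell and 25.1% rose. Of 18 lipolysis genes 7 fell and 1 rose (median -0.50), with 5 falls in females alone and 4 in males alone. Mgll, which releases the last fatty acid from monoacylglycerol, and Prkaca, the catalytic subunit of protein kinase A, were below every young library in all 6 old ones, with changes of -1.22 and -1.19 (adjusted p 0.000292 and 4.41e-05). Adora1, the adenosine receptor that restrains lipolysis, also fell (-1.20, SE 0.14, adjusted p 3.71e-06), from 50.5 to 124 to 26.8 to 35.6 CPM. In the insulin list 8 of 20 fell and 3 rose, and its median was 0.05. The insulin-regulated glucose transporter gene Slc2a4 was 207, 254 and 87.1 CPM in young females and 129, 150.2 and 185 CPM in young males, against 63.3, 39.5 and 39.8 CPM in old females and 74.6, 45.9 and 74.3 CPM in old males. All old values lay below all young ones (log2 -1.60, SE 0.27, adjusted p 0.000121). The hexokinase gene Hk2 fell by 0.88 on the log2 scale (adjusted p 0.000975).

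Mitochondrial genes of the nucleus were modestly lower. Of 36 nuclear genes of oxidative phosphorylation 23 fell and 0 rose (median -0.41, females -0.52, males -0.31). Ndufa4, a respiratory chain subunit, went from 141 to 268 to 82.0 to 128 CPM and Sdhd, a subunit of succinate dehydrogenase, from 92.8 to 164 to 58.2 to 83.0 CPM, both without overlap (adjusted p 5.21e-05 and 0.000169). Breakdown of branched-chain amino acids, which feeds lipogenesis in fat, had 13 of 17 genes lower and 0 higher (median -0.47), among them the aminotransferase gene Bcat2 (-0.95, adjusted p 0.000322). For fatty acid uptake and beta-oxidation 11 of 22 fell and 1 rose, and Cpt2, which brings fatty acids into beta-oxidation, fell by 0.90 on the log2 scale (adjusted p 7.89e-05). Decr1, an enzyme for unsaturated fatty acids, fell by 1.001 on the log2 scale (adjusted p 0.000166). Genes encoded by the mitochondrial genome went apart by sex: 12 of 13 fell over both sexes, but the median was -0.24 in females, with 1 called, and -2.34 in males, with 10 lower and 1 higher. The male fall coincides with library kind: mt-Nd2 was 3829, 3522 and 5684 CPM in the young males and 239 to 535 CPM in the other 9 libraries.

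Cholesterol synthesis genes fell almost throughout their list. Of 22 genes 20 fell and 0 rose, with medians of -1.06 over both sexes, -0.99 in females (11 called) and -1.12 in males (21 called). In 10 of them all 6 old libraries lay below all 6 young ones, against 5.55% of all genes. Insig1, a sterol sensor protein of the endoplasmic reticulum whose gene is an SREBP target, was 349, 510.1 and 156 CPM in young females and 201, 149 and 348 CPM in young males. In old animals it was 84.1, 48.4 and 54.0 CPM in females and 81.9, 85.3 and 81.2 CPM in males. Neither sex overlapped with age, and the change was -1.97 (SE 0.31, adjusted p 7.16e-05) with -2.65 in old female 3 (adjusted p 0.0378). Dhcr7, which makes cholesterol from its last precursor, fell by 1.38 (adjusted p 2.36e-05), and Fdft1, the first enzyme committed to sterols, by 1.07 on the log2 scale (adjusted p 7.88e-05). Hmgcs1, which forms the precursor of mevalonate, was singled out after its values were seen, for its promoter, and fell by 1.05 (SE 0.25, adjusted p 0.00215). In females alone Hmgcs1 did not pass (-0.93, adjusted p 0.0665). With the split as a term the female change of Dhcr7 was -0.56 (adjusted p 0.231, not passed), whereas Insig1 and Fdft1 kept their calls (-2.11 and -1.22, adjusted p 0.0276 and 0.0188).

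The promoters of these genes share a short element, and 3 stretches are shown because they belong to genes that fell together. The CCAAT box, to which the factor NF-Y binds beside SREBP at sterol genes, was searched as CCAAT on both strands in the 250 bases before each start. It was present in 16 of the 16 cholesterol genes that have a promoter in the RefSeq table (100%), against 37.5% of 27025 genes. Capitals mark each box within the stretch, written as ATTGG where it lies on the opposite strand. The stretches are from RefSeq on GRCm38.p6: Hmgcs1 at chr13:119690266-119690350 (plus strand), Insig1 at chr5:28071162-28071240 (plus strand) and Dhcr7 at chr7:143830125-143830209 (plus strand).
Hmgcs1: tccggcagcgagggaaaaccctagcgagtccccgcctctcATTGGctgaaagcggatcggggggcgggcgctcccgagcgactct
Insig1: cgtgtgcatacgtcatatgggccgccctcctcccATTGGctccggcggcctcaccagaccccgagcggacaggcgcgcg
Dhcr7: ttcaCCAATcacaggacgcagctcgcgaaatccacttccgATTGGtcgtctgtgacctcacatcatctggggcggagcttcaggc
A match is a description of the letters, and the count of 5 bases is short enough that many promoters hold it.

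**Figure D3:**
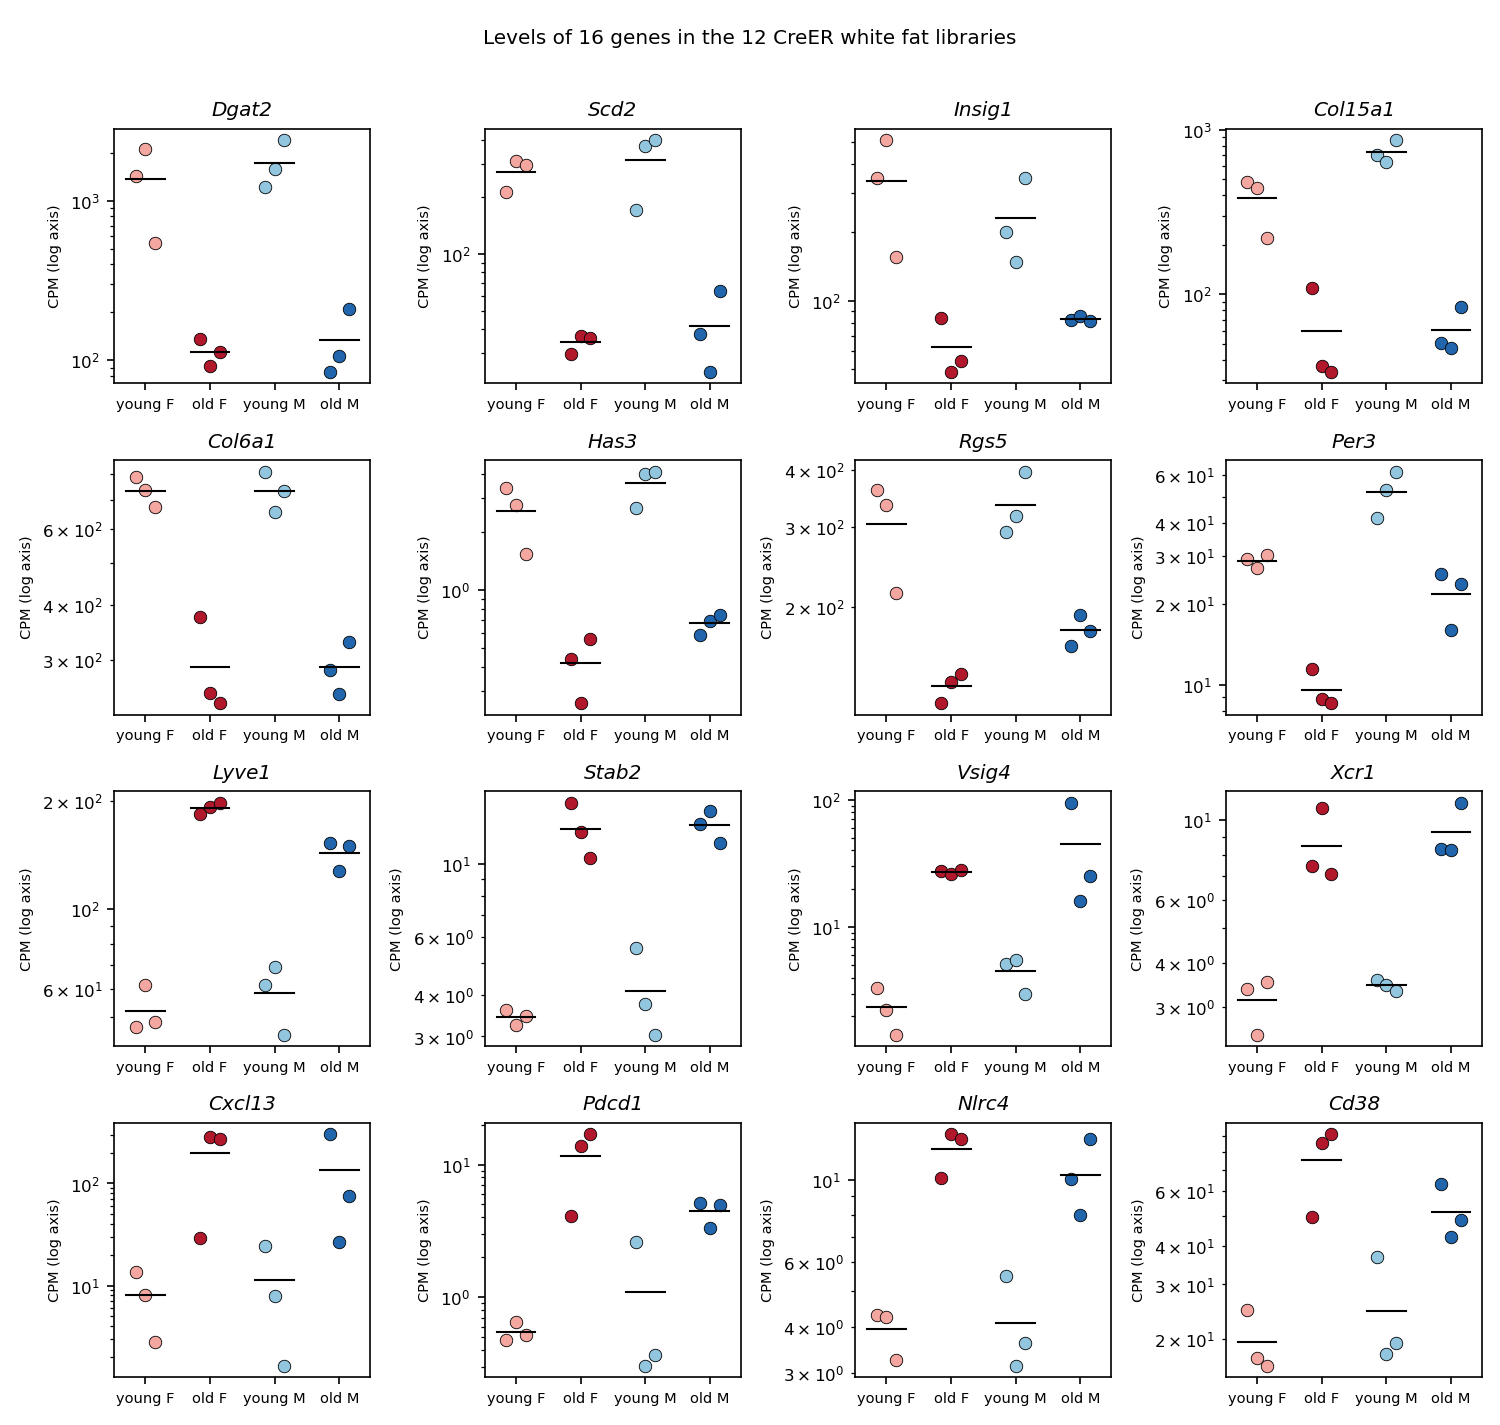
CPM of 16 genes (log axes) in the 4 groups, one point per library and a line at each group mean. The upper 8 genes fell and the lower 8 rose with age, and in each of the 16 all 6 old libraries lie beyond all 6 young ones.

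Collagen genes fell without exception among those listed. All 15 of 15 tested genes of fibrillar and network collagens were lower over both sexes (median -0.99), 9 of them in females alone and 13 in males alone. The summed collagen level was 6246 to 7606 CPM in young and 3321 to 4559 CPM in old females, and 8933 to 12137 CPM in young and 3569.7 to 4920.3 CPM in old males, so no old library reached a young one. Col15a1, a collagen of basement membranes, was 483, 446 and 219.6 CPM in young females and 702, 635 and 863 CPM in young males. At 24 months it was 109, 36.8 and 33.8 CPM in females and 50.8, 46.9 and 83.3 CPM in males. It is the list's largest change (-3.14, SE 0.48, adjusted p 4.91e-05), and the lowest young library was again young female 3. With the split by non-whole values as a term its female change was -2.42 and did not pass (adjusted p 0.0923), nor did that in old female 3 (-3.50, adjusted p 0.0627). The collagen VI genes Col6a1 and Col6a2, whose product surrounds adipocytes, fell by 1.34 and 1.96 on the log2 scale (adjusted p 4.58e-05 and 2.59e-05) without overlap. Col18a1, which yields endostatin, fell in females by 0.65 and in males by 1.84 on the log2 scale, and that difference between the sexes passed its test (difference -1.19, SE 0.30, adjusted p 0.00912).

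Other matrix genes were divided. Of 20 matrix proteins and collagen processing genes 9 fell and 2 rose. Sparc, a collagen-binding protein, fell from 1645 to 4894 to 610.1 to 1202 CPM (log2 -1.68, adjusted p 5.13e-05) and Serpinh1, the chaperone of procollagen, from 277 to 692 to 153 to 212 CPM (adjusted p 0.000177). Lumican (Lum), a proteoglycan that orders collagen fibrils, fell by 1.30 on the log2 scale (adjusted p 9.43e-05), with -1.89 in females and -0.70 in males, where it did not pass (adjusted p 0.0660). Thbs2, a matrix glycoprotein that binds proteases, rose instead, from 77.9 to 363 to 449.7 to 1387 CPM, with the highest value in old female 1 (log2 2.11, SE 0.43, adjusted p 0.000623). In old female 3 alone its change was 1.12 and did not pass (adjusted p 0.257). Among metalloproteinases and their inhibitors 3 of 15 rose, a share below the 25.1% of all genes, and 0 fell. Mmp11 and Mmp3, 2 of the matrix-cutting enzymes, gave 1.19 and 1.12 (adjusted p 0.00797 and 0.0352). Mmp11 did not pass in females (0.52, adjusted p 0.459), where it gave -0.30 with the split by non-whole values as a term, and in males, where it passed, age and library kind cannot be told apart. The call of Mmp3 was lost without old male 1 (adjusted p 0.1085) and without 6 other single libraries.

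Hyaluronan, the polymer that the study's transgene adds to, is made in mice by 3 synthases and taken up by scavenger receptors. The synthase gene Has3 was 3.37, 2.75 and 1.54 CPM in young females, 2.65, 3.97 and 4.11 CPM in young males, 0.439, 0.259 and 0.560 CPM in old females and 0.581, 0.689 and 0.745 CPM in old males. The 6 old values were all below the 6 young ones (log2 -2.49, SE 0.32, adjusted p 8.25e-06), and old female 3 alone gave -2.18 (adjusted p 0.0201). The mouse's own Has2 was 5.30, 6.55 and 2.37 CPM in young and 1.05, 1.61 and 1.44 CPM in old females, and 2.22, 1.01 and 1.07 CPM in young and 0.894, 0.722 and 0.798 CPM in old males. Its change was -1.31 (SE 0.33, adjusted p 0.00295), with -1.79 in females (adjusted p 0.0126) and -0.82 in males (adjusted p 0.164), where it did not pass. The receptors moved the other way. Stab2, which clears hyaluronan from lymph and blood, was 3.62, 3.26 and 3.45 CPM in young females and 5.56, 3.76 and 3.04 CPM in young males, and 15.3, 12.5 and 10.4 CPM and 13.2, 14.4 and 11.5 CPM in old females and males. Lyve1, the hyaluronan receptor of lymphatic vessels and of some tissue macrophages, was 47.0, 61.3 and 48.4 CPM and 61.5, 69.2 and 44.8 CPM in young females and males, and 184, 192 and 197 CPM and 152, 128 and 149.96 CPM in old ones. All old libraries lay above all young ones for both receptors, with changes of 1.77 (SE 0.17, adjusted p 5.18e-07) and 1.58 (SE 0.18, adjusted p 2.69e-06). Over the 16 tested genes of hyaluronan metabolism 6 rose and 3 fell.

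Lymphatic markers rose over both sexes, while other vessel lists had shares near those of all genes. Of 7 lymphatic endothelial markers 4 rose and 0 fell (median 0.89). Females alone had 2 rises (median 1.32) and males alone 1 (median 0.24), the latter a share below the 21.6% of all genes that rose in males. The summed level of these markers was 98.0 to 260.1 CPM in young and 406 to 461 CPM in old females, and 218 to 402 and 622 to 649 CPM in males. Mmrn1, a lymphatic marker, rose over both sexes (1.86, adjusted p 0.0342) although it did not pass in either alone, and young females 1 and 2 stood at 1.76 and 2.74 CPM against 52.6 CPM in young female 3. Its call was lost without any 1 of 8 libraries, among them young male 3 (adjusted p 0.0781). Blood vessel endothelial markers had 4 of 15 lower, near the 24.4% of all genes that fell, and 1 higher (median -0.31), among the lower ones the receptor gene Tie1 (-0.64, adjusted p 0.00141). Of 11 pericyte and smooth muscle markers 3 fell, again near that share. Rgs5, a pericyte marker, was 215 to 396 CPM in young and 123 to 193 CPM in old libraries (log2 -1.04, SE 0.11, adjusted p 1.54e-06), with -1.08 in old female 3 (adjusted p 0.0217). Notch3, a receptor of mural cells, fell by 2.0002 on the log2 scale in males and by 0.49 in females, where it did not pass, and the sexes differed (difference -1.51, adjusted p 0.00276).

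Lymphocyte genes rose, with larger medians in females than in males. In the B and plasma cell list 11 of 15 tested markers rose and 0 fell over both sexes (median 2.15). Females had 11 rises (median 3.31) and males 2 (median 0.64), the latter a share below the 21.6% of all genes that rose in males, and for 2 markers the sex difference passed. Cd79b, a signalling chain of the B cell receptor, was 10.4, 8.56 and 3.40 CPM in young females and 27.2, 123 and 109 CPM in old females. In males it was 10.1, 3.601 and 2.11 CPM at 6 months and 9.88, 16.8 and 90.2 CPM at 24 months. Old male 1 at 9.88 CPM fell below young female 1 and young male 1, and old male 3 stood far above the other old males. The change was 3.21 (SE 0.66, adjusted p 0.000626). Its partner Cd79a gave 2.94, the inhibitory B cell receptor Cd22 3.10, the survival receptor Tnfrsf13c 3.599 and the antibody-secretion cofactor Mzb1 2.54 (adjusted p 0.00110, 0.000356, 0.000499 and 0.00153). Fcrl5, a receptor of innate-like and memory B cells that was singled out after its values were seen, was 0.0260 to 0.915 CPM in young and 1.02 to 25.0 CPM in old libraries, without overlap (log2 4.91, SE 0.86, adjusted p 0.000171).

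T cell genes gave more calls in females than in males. Of 22 T and NK cell markers 15 rose and 2 fell (median 1.36). Females had 14 rises and 0 falls (median 1.94), and males 3 rises and 2 falls (median 0.88), below the 21.6% of all genes that rose in males. The sex difference passed for 3 of the markers downward and 0 upward. Pdcd1, the checkpoint receptor PD-1 of activated and exhausted T cells, was 0.472, 0.652 and 0.515 CPM in young females and 4.07, 13.9 and 16.9 CPM in old females. In males it was 2.60, 0.304 and 0.364 CPM and 5.09, 3.31 and 4.97 CPM. The old libraries all lay above the young ones (log2 3.22, SE 0.53, adjusted p 9.64e-05), and old female 3 alone gave 4.95 (adjusted p 0.0152). The helper T cell coreceptor Cd4 rose by 2.78 on the log2 scale (adjusted p 0.000132), with 65.1 CPM in old male 1 as its highest value, and Cd3g, a chain of the T cell receptor complex, by 1.81 (adjusted p 0.00138). Ctla4, a second checkpoint receptor, and Ptprcap, a partner of CD45 in lymphocytes, were both singled out after their values were seen and rose by 3.38 and 2.83 without overlap between ages (adjusted p 0.000221 and 0.000138).

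Genes of lymphoid tissue rose beside them. Of 17 germinal centre and lymphoid tissue genes 14 rose and 1 fell (median 2.15, females 3.36, males 0.82). Cxcl13, the chemokine that draws B cells into follicles, was 13.7, 8.07 and 2.78 CPM in young females and 29.4, 285 and 275 CPM in old females. In young males it was 24.6, 7.95 and 1.64 CPM and in old males 303, 26.5 and 75.5 CPM. The lowest old library, old male 2, still lay above the highest young one, young male 1 at 24.6 CPM, and the change was 4.08 (SE 0.71, adjusted p 0.000151). Ccl19, which guides T cells and dendritic cells to lymphoid tissue, rose in females by 3.57 (adjusted p 0.00132) and gave 0.82 in males, where it did not pass, with a sex difference of -2.75 (SE 0.72, adjusted p 0.0111). Glycam1 and Madcam1 encode ligands on the high endothelial venules by which lymphocytes enter lymph nodes. Glycam1 was 1.26, 28.7 and 17.4 CPM in old females and at most 0.16 CPM in the 9 other libraries, of which 5 had 0. Its fitted change in females (9.55, adjusted p 0.00333) depends on the prior count. Madcam1, named after its values were seen, was 0.179 to 1.58 CPM in old and 0 to 0.0901 CPM in young libraries (log2 3.56, adjusted p 8.97e-05), and Cr2, a complement receptor of follicular B cells and dendritic cells chosen likewise, rose in females (4.30, adjusted p 0.0134) and gave -0.01 in males. The summed level of the list was 167 to 673 CPM in old females and 90.3 to 141 CPM in young ones, with old female 1 the lowest of the old. The part that lymph node tissue within the dissected fat may have in these values was not tested.

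**Figure D4:**
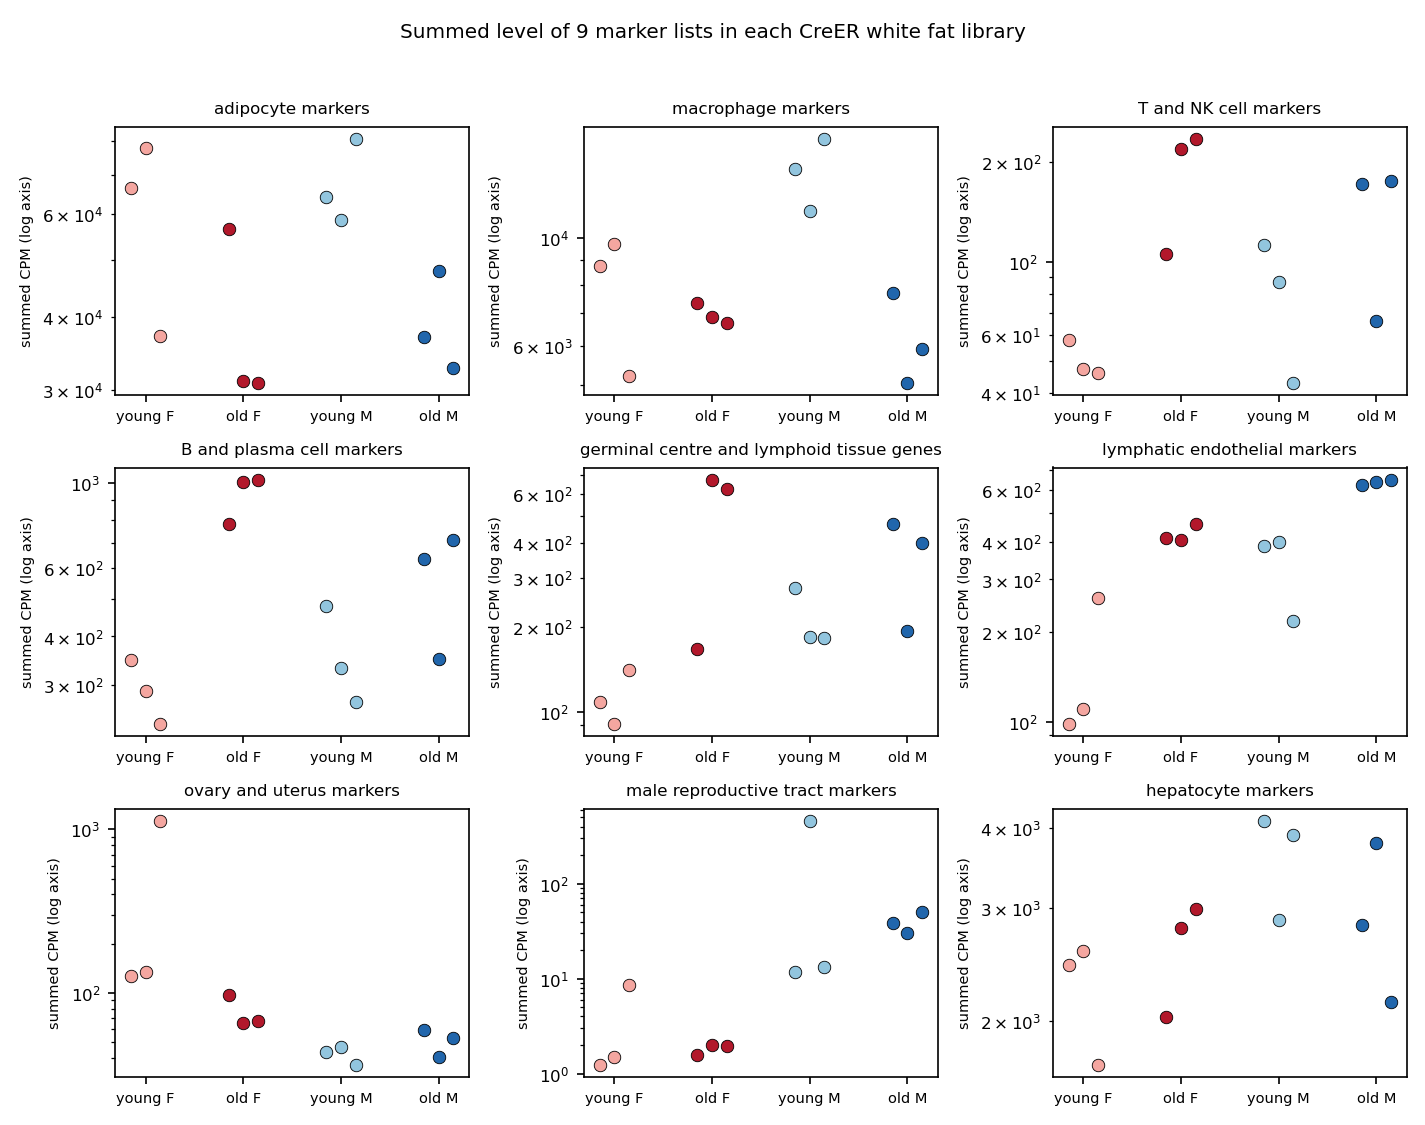
Summed CPM of 9 marker lists (log axes) in the 4 groups, one point per library. B cell, lymphoid tissue and lymphatic lists are higher in old females than in young ones, young female 3 stands apart at 1131 CPM for ovary and uterus markers and young male 2 at 461 CPM for male reproductive tract markers.

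Macrophage and dendritic cell genes rose with exceptions. Of 20 macrophage markers 14 rose and 1 fell (median 0.88, females 1.37, males 0.46). Females had 12 rises and males 4, the latter a share near the 21.6% of all genes that rose in males. The member that fell over both sexes is Lpl, which adipocytes also express. Lpl held most of the counts of this list in the young libraries, and the summed level in males went from 11348 to 15917 to 5039.6 to 7706 CPM. Vsig4, a complement receptor of resident macrophages named after its values were seen, was 3.34, 2.24 and 1.43 CPM in young females and 5.13, 5.49 and 2.96 CPM in young males. It stood at 27.8, 25.9 and 28.3 CPM in old females and 94.4, 16.05 and 25.4 CPM in old males, with old male 1 highest and no overlap (log2 3.43, SE 0.41, adjusted p 4.82e-06). Clec4n, the fungal receptor Dectin-2, rose by 2.70 (adjusted p 0.000199) and the complement subunit gene C1qa by 1.27 (adjusted p 0.000415), both with overlap. Xcr1, the chemokine receptor of cross-presenting dendritic cells, was 2.52 to 3.59 CPM in young and 7.06 to 11.2 CPM in old libraries, and its change was 1.43 in females and 1.42 in males (adjusted p over both sexes 1.40e-06). Of 9 dendritic cell markers 5 rose and 0 fell. Among 9 neutrophil markers 5 rose, against 25.1% of all genes, with 1 higher and 1 lower in females. Their summed level was 844 CPM in young female 3 and 36.6 to 94.3 CPM in the other 11 libraries, so no old library reached that young one. Ltf belongs to both this list and the ovary and uterus list, in which young female 3 also stood apart. The part of Ltf in this sum was not tested. S100a9, an alarmin subunit, was 0.692 to 11.7 CPM in old and 0.468 to 2.61 CPM in young libraries (log2 2.32, adjusted p 0.0101; 0.0765 without old male 1).

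Mast cell markers changed in males but not by the test in females. Over both sexes 3 of 8 rose and 1 fell, but 0 were called in females and 5 rose in males. Cma1, a mast cell chymase, was 15.3, 16.1 and 11.6 CPM in young and 14.5, 13.6 and 12.6 CPM in old females, and 8.02, 5.07 and 5.87 CPM in young and 25.7, 12.1 and 13.3 CPM in old males. The female groups overlap and the male ones do not, and the sex difference passed (difference 1.51, SE 0.34, adjusted p 0.00358). The low values belong to the young males, the libraries of the other kind, so age and kind cannot be told apart there. Kit, the receptor that mast cells depend on, went the opposite way in males (-1.01, adjusted p 0.00137) and gave 0.17 in females. Its call over both sexes (-0.42, adjusted p 0.0320) was lost without any 1 of 8 libraries, among them old male 1 (adjusted p 0.116).

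More interferon-stimulated genes rose in females than in males. Of 24 such genes 12 rose and 0 fell over both sexes (median 0.59). Females had 15 rises and 0 falls (median 0.93), against 9.78% of all genes that rose in females. The summed level was 939, 1527 and 1627 CPM in old females and 511 to 1023 CPM in young ones. Old female 1 thus lay within the range of the young females. Males had 3 rises and 2 falls (median 0.23), a share of rises below the 21.6% of all genes, and in 3 genes the male change was lower than the female one by the test of the difference. Ifit2, an antiviral protein that binds RNA, was 24.4, 27.4 and 24.7 CPM in young females and 13.6, 15.7 and 15.5 CPM in young males. It was 42.3, 44.8 and 52.5 CPM in old females and 45.6, 32.6 and 32.8 CPM in old males, above every young library in all 6 (log2 1.09, SE 0.10, adjusted p 5.08e-07). Irf7, a transcription factor of the interferon response, was 27.1, 87.0 and 89.5 CPM in old females, where old female 1 at 27.1 CPM lay close to the young range, and changed by 1.15 (adjusted p 0.00101) over both sexes. Usp18, which restrains interferon signalling, rose by 0.98 (adjusted p 0.000431).

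The element through which interferon acts was looked for in the promoters. Its core, searched as GAAA, any 2 bases and GAAA again on either strand of the 250 bases before the start, was present in 10 of the 17 interferon-stimulated genes with a promoter in the RefSeq table (58.8%), against 3.46% of 27025 genes. The stretches shown belong to 3 genes that rose over both sexes and hold the core, and they were picked after the values were seen: Ifit1 at chr19:34640764-34640853 (plus strand), Igtp at chr11:58199482-58199555 (plus strand) and Oas1a at chr5:120907526-120907579 (minus strand), all from RefSeq on GRCm38.p6. Capitals mark each core within the stretch. Ifit1 holds it in 2 places as its reverse complement, and in Oas1a 2 cores overlap.
Ifit1: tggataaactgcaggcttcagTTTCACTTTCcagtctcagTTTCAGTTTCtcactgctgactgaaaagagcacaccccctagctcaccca
Igtp: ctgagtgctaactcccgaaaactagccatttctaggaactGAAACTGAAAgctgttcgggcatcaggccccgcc
Oas1a: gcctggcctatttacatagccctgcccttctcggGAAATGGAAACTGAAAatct
Ifit1, an antiviral protein that recognises foreign RNA caps, was 15.3, 22.2 and 14.1 CPM in young and 19.0, 43.7 and 56.4 CPM in old females, and 9.83, 5.24 and 5.98 and 16.7, 9.78 and 8.30 CPM in young and old males (log2 0.97, SE 0.27, adjusted p 0.00673). Igtp, an interferon-induced GTPase, gave 0.68 (adjusted p 0.0467) and Oas1a, a sensor of double-stranded RNA, 0.69 (adjusted p 0.0405). In all 3 genes the old libraries overlapped the young ones, and old females 2 and 3 held the highest values. The calls of Igtp and Oas1a did not hold without old male 1 (adjusted p 0.1045 and 0.1051) or without old female 3 (0.0771 and 0.108), and were lost without 8 and 7 single libraries in all.

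Over both sexes, innate sensing, complement and chemokine lists had larger shares of rises than all genes (25.1%). In males alone their shares lay below the 21.6% of all genes that rose in males. There 3 of 18 pattern receptors, 3 of 19 complement genes and 4 of 26 chemokines and cytokines rose. Of 21 chemokine and cytokine receptors 2 rose and 3 fell in males, and 6 had a lower change in males by the test of the difference. In the list of inflammasome and pattern receptors 12 of 18 rose and 0 fell (median 0.71). Nlrc4, which assembles an inflammasome on bacterial ligands, was 4.31, 4.24 and 3.24 CPM in young females and 5.49, 3.13 and 3.61 CPM in young males, against 10.1, 13.3 and 12.9 CPM and 10.1, 8.01 and 12.8 CPM in old ones. No old library fell into the young range (log2 1.48, SE 0.18, adjusted p 5.19e-06), and old female 3 alone gave 1.71 (adjusted p 0.0160). Of 19 complement genes 9 rose and 1 fell, among them properdin (Cfp), which stabilises the alternative pathway (1.42, adjusted p 0.000193). Of 17 antigen presentation genes 6 rose and 0 fell, with 6 rises in females and 1 in males, and most did not pass. Among those that rose was H2-Oa, a modulator of peptide loading in B cells, which lay above every young library in all 6 old ones (2.90, adjusted p 0.000391). Among 26 chemokines and cytokines 13 rose and 1 fell (median 1.13, females 1.78, males 0.49), and among 21 of their receptors 9 rose and 2 fell. Icam1, the adhesion molecule by which leukocytes leave the blood, rose from 16.5 to 28.3 to 28.3 to 46.2 CPM without overlap by a small margin (log2 0.92, adjusted p 8.69e-05).

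**Figure D5:**
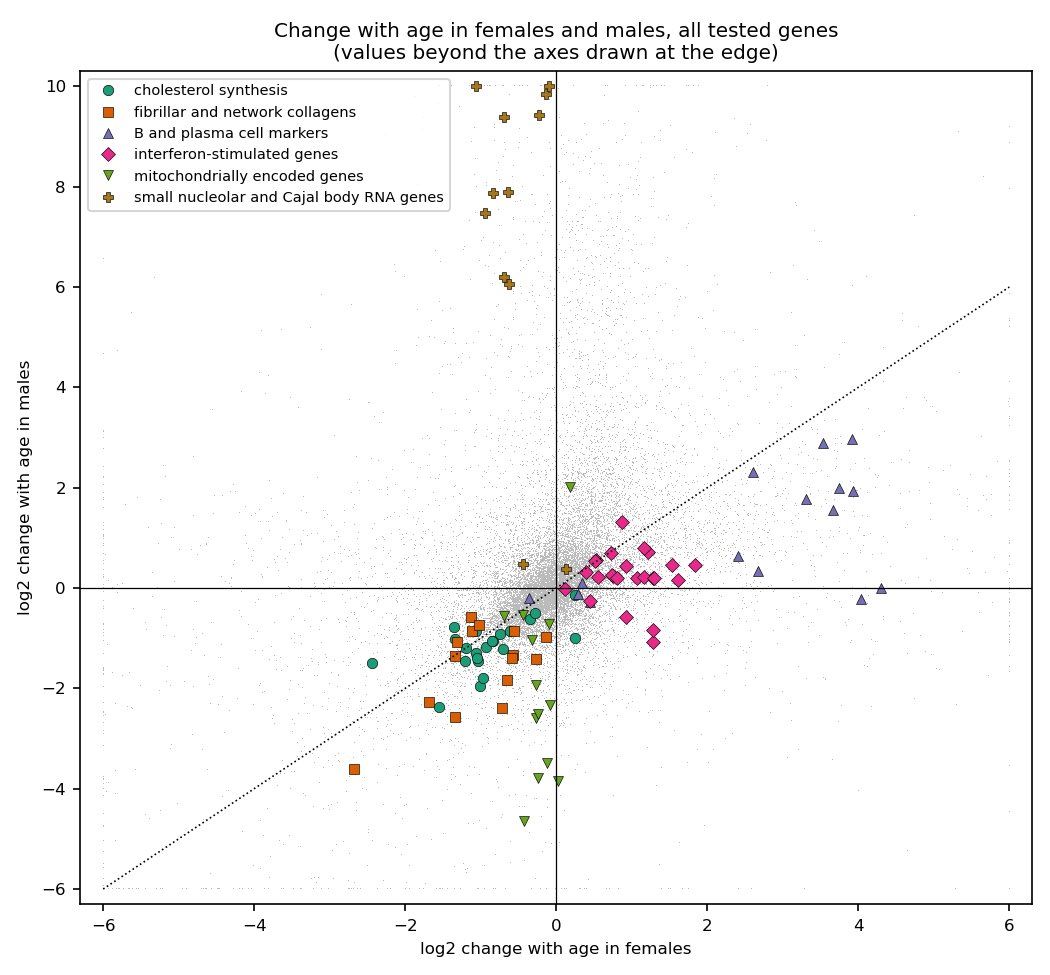
Log2 change with age in females (x axis) and in males (y axis) for all 21109 tested genes, with 6 lists coloured and a dotted line of equal change. Cholesterol and collagen genes lie near the line in the lower left, B cell markers lie to the right at smaller male values, and small nucleolar RNA genes lie high on the male axis at female values near 0.

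Senescence genes were mixed, and neither of the cell cycle inhibitors below passed over both sexes. Of 20 genes of senescence and its secreted factors 8 rose and 2 fell (median 0.58), beside 25.1% and 24.4% of all genes. The sexes went apart, with 6 rises and 0 falls in females and 1 rise and 5 falls in males. In males the summed level of the list was 1210 to 1846 CPM in young and 742 to 870 CPM in old libraries. Age and library kind cannot be told apart there. Cdkn2a, which encodes the cell cycle inhibitor p16 and a second protein from the same locus, was 0.535, 0.550 and 0.888 CPM in young and 1.29, 1.38 and 1.84 CPM in old females, and 1.32, 0.959 and 1.35 CPM in young and 1.94, 0.459 and 1.38 CPM in old males. Its change of 0.63 (SE 0.40) did not pass (adjusted p 0.204), and the old and young ranges overlapped. With the split by non-whole values as a term the adjusted p was 0.0225. Cdkn1a, the inhibitor p21, was 23.5, 21.0 and 18.4 CPM in young and 23.3, 31.4 and 30.6 CPM in old females, and 53.6, 41.0 and 66.6 CPM in young and 25.1, 33.0 and 25.6 CPM in old males. Over both sexes it gave -0.25 (adjusted p 0.153). In males it fell by 0.95 on the log2 scale (adjusted p 0.00114), and the sexes differed (difference -1.39, SE 0.29, adjusted p 0.00201). The stress-induced hormone Gdf15 rose from 0.217 to 2.70 to 2.04 to 8.22 CPM (log2 2.21, SE 0.41, adjusted p 0.000302), with old male 1 highest. Igfbp5, a binding protein of insulin-like growth factors counted in the same list, fell by 1.48 (adjusted p 0.000514).

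Genes of NAD metabolism included opposite changes in enzymes that use up or divert its precursors. Cd38, the main NAD-consuming enzyme of immune cells, was 24.9, 17.3 and 16.4 CPM in young females and 36.7, 17.96 and 19.4 CPM in young males. In old libraries it was 49.7, 85.8 and 91.5 CPM in females and 63.1, 42.7 and 48.5 CPM in males, without overlap (log2 1.51, SE 0.21, adjusted p 2.16e-05), and 2.23 in old female 3 (adjusted p 0.0152). Its relative Bst1 rose by 1.399 (adjusted p 0.00246). Nnmt, which methylates nicotinamide and is abundant in fat, fell from 49.3 to 159.9 to 23.0 to 37.5 CPM (log2 -1.998, SE 0.29, adjusted p 2.65e-05). Over the list, 4 of 17 rose and 5 fell (median -0.03), shares near the 25.1% and 24.4% of all genes.

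Clock and glucocorticoid response genes changed in part. Of 18 circadian genes 9 fell and 4 rose, and the labels give no hour of sampling. Males alone had 9 falls and 4 rises, and females alone 4 falls and 1 rise. In males age and library kind cannot be told apart. Per3, a repressor of the clock, was 29.3, 27.2 and 30.2 CPM in young females and 41.5, 53.0 and 61.9 CPM in young males, against 11.4, 8.83 and 8.53 CPM and 25.7, 15.98 and 23.6 CPM in old ones. All old libraries lay below all young ones, narrowly where old male 1 at 25.7 CPM met young female 2 at 27.2 CPM (log2 -1.43, SE 0.15, adjusted p 1.50e-06). Tef, a clock output factor, and Cry2, a second repressor, fell by 1.14 and 0.88 on the log2 scale (adjusted p 1.43e-05 and 1.14e-06), also without overlap. Nr1d1, which encodes REV-ERB alpha, fell by 2.20 in males and gave -0.32 in females, and the sexes differed (adjusted p 0.00283). Of 12 glucocorticoid response genes 5 rose and 0 fell over both sexes, against 25.1% and 24.4% of all genes. Females had 5 rises and 1 fall, and males 1 rise and 1 fall. In 3 of them the male change was lower than the female one by the test of the difference. The metallothionein gene Mt1 was 48.1, 55.6 and 138 CPM in young and 296, 739 and 663 CPM in old females, and 138, 61.7 and 49.7 and 183, 199.96 and 164 CPM in young and old males (log2 1.97, adjusted p 0.000426). The kinase gene Sgk1 rose by 1.42 and the hormone-receptor cochaperone gene Fkbp5 by 1.37 (adjusted p 0.000923 and 0.0122). Cebpd, a factor of early adipogenesis and of the acute-phase response, rose from 11.2 to 29.3 to 44.9 to 82.2 CPM (adjusted p 0.000181). Of 19 immediate early genes, whose levels can move with handling, the share that rose was near the 25.1% of all genes: 5 rose and 2 fell, with Fos at 1.61 and Junb at 1.11 (adjusted p 0.00181 and 0.00160).

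Thermogenic genes were uneven between libraries. Of 18 thermogenic and beige adipocyte genes 7 fell in females and 2 in males, where 2 rose. Ucp1, the uncoupling protein of brown and beige fat, was 0.771, 23.2 and 0.232 CPM in young females, with young female 2 far above the others, and at most 1.04 CPM in the other 11 libraries. The change over both sexes did not pass (-2.08, SE 1.07, adjusted p 0.115), and that in females did (-6.04, adjusted p 0.0151). Dio2, which activates thyroid hormone, was 0.504, 2.10 and 80.4 CPM in young females, here with young female 3 far above, and 0.0879, 0.0863 and 0.187 CPM in old females. Cidea, a droplet protein of brown and beige fat, was 2.67, 20.2 and 1.52 CPM in young and 0.761, 0.403 and 0.199 CPM in old females. In each of the 3 genes 1 young female library held most of the signal. Kcnk3, a potassium channel gene of the list, was steadier: it was 17.3, 17.7 and 7.17 CPM in young females, 26.7, 24.9 and 36.7 CPM in young males, 4.33, 2.59 and 2.004 CPM in old females and 3.15, 4.59 and 5.13 CPM in old males (log2 -2.51, SE 0.38, adjusted p 4.78e-05), without overlap.

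Among the large fitted rises were 7 histone genes, which moved with library kind. Hist1h2ap, H2ac11, H3c13, H4c6, H2ac15, H2ac4 and H3c1 were at 0 in all 3 young males. No fold is given for them, and reads of such near-identical family members can be split between copies. H3c13, a replication-dependent histone gene, was 6.23, 5.17 and 11.97 CPM in young and 8.08, 24.5 and 22.9 CPM in old females, and 12.6, 5.74 and 12.1 CPM in old males. In females it did not pass (1.25, SE 0.49, adjusted p 0.0796). Of 62 histone genes tested 50 rose in males and 3 in females, and of 64 small nucleolar, Cajal body and nuclear RNA genes 41 rose in males and 0 in females. Scarna13, Rnu1a1 and Scarna10, all without a poly(A) tail, and the nuclear RNA Malat1 had the smallest p values of the sex difference together with Anp32b. Malat1 was 348, 479 and 418 CPM in young males and 5639.8 to 9763 CPM in the other 9 libraries, and its female change of 0.33 did not pass (adjusted p 0.173). Anp32b, a histone chaperone, was 82.7, 79.4 and 77.9 CPM in young males and 15.8 to 26.6 CPM elsewhere.

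Among the large fitted falls were transcripts of other organs. Of 9 hepatocyte markers 7 fell over both sexes, 8 in males and 0 in females. Mug1, a liver protease inhibitor, was 7.61, 23.0 and 16.01 CPM in young males, 0.0629, 2.78 and 1.21 CPM in young females, 0.0293, 0 and 0 CPM in old females and 0, 0.0656 and 0 CPM in old males, where 4 of the 6 old libraries had 0. Cyp3a11, Cyp2c29, Serpina1c, C4bp and Fgb, which liver makes, had the same outline, with values of at most 0.117 CPM in every old library. Wfdc10 was 32.7 CPM in young male 2, 3.68 CPM in young female 3 and 0 in the other 10 libraries, and Atp10b was high in the same 2 libraries only. With both libraries left out, Wfdc10 was at 0 throughout. The part of carried-over tissue in them was not tested.

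The ageing of the controls was set against that of the transgenic animals. The test of the difference in ageing between nmrHAS2 and CreER called 0 of 21109 genes (0.0%) with edgeR, 1287 had an unadjusted p under 0.05, and DESeq2 called 116. In nmrHAS2 white fat 4147 genes rose (19.6%) and 3622 fell (17.2%) with age, 7769 in all (36.8%), in libraries of the same kinds. Of the genes called in each genotype 6686 were shared with the same sign, which is 64.1% of those called in CreER and 86.1% of those called in nmrHAS2. The comparisons use different libraries, but one fit gave both their spread. Library kind and the split by non-whole values lie alike over age and sex in both genotypes. Shared calls are therefore no separate check of ageing. For Dgat2 the nmrHAS2 change was -1.53 beside -3.65 in controls, for Col15a1 -1.98 beside -3.14, for Insig1 -0.71 beside -1.97, for Stab2 1.13 beside 1.77 and for Cxcl13 0.71 beside 4.08. Of these, Insig1 and Cxcl13 did not pass in nmrHAS2 (adjusted p 0.0760 and 0.398). Other genes gave closer values, among them Rgs5 with -0.99 beside -1.04, Cd3g with 1.74 beside 1.81 and Notch3 with -1.34 beside -1.24. The collagen list had 13 of 15 lower in nmrHAS2 (median -0.76), the cholesterol list 12 of 22 (median -0.63) and the B and plasma cell list 8 of 15 higher (median 1.496). With edgeR no gene's difference from the controls passed, which does not show that the genotypes aged to the same extent.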

How the data were processed

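RNA of white adipose tissue was extracted with Trizol, treated with DNase and cleaned on columns, per the labels' protocols, and sequenced. Reads were trimmed with Trim Galore 0.6.5 and quantified with Salmon 1.4.0, per the submitters' processing notes. The table that the authors deposited holds estimated counts for 40946 genes, which were rounded to whole numbers here. For its genome build and annotation no source used here gives a name.

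All 24 white fat libraries (8 groups of age, sex and genotype, 3 libraries each) were fitted together with edgeR 4.0.16 in R 4.3.3, using TMM scaling, filterByExpr and the quasi-likelihood F test on 16 residual degrees of freedom. This kept 21109 genes. Groups came from the labels, and ageing, its sex difference and its genotype difference were contrasts of group means. P-values are 2-sided and Benjamini-Hochberg adjusted over all tested genes, with a threshold of 0.05. SE is the size of the log2 change over the square root of F. On simulated counts with 200 changed genes among those tested, the ageing test recovered 70% at a fold of 2 and 98% at a fold of 4 and called 0.0243% of unchanged genes. The simulation held no effect of sex, library kind or non-whole values, so these rates do not carry over to the real libraries.

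The libraries, taken by label, and the gene lists (58 in all) were chosen with earlier results of these data known. Named genes are the 8 largest rises and falls (called, mean of at least 2 CPM, same sign in both sexes), up to 4 called members with the smallest p of each list, the 5 smallest p of the sex difference, and 6 fixed mouse genes with the naked mole-rat transcript. Symbols of unnamed gene models, pseudogenes, immune receptor segments, Xist and Y-linked genes were left out, some genes that the rule takes are not reported here, and genes chosen after their values were seen are marked. Alternatives were RLE size factors, no filter, DESeq2 1.42.0, a replicate block, only the CreER libraries, technical genes removed, each library left out and each sex alone. Library kind as a term could not be fitted, because it coincides with the young males.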

Additional observations from a re-analysis of the deposited data

Results flagged for a closer look

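Of the 144 named genes, 32 changed with age differently in males and females by edgeR's test of the difference (male minus female log2 change, adjusted over all genes). The groups hold 3 libraries each, so single libraries were not tested for standing apart. In males age and library kind cannot be told apart, and the part of library kind in these differences was not tested.

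Non-polyadenylated and nuclear RNAs had positive differences: Rnu1a1 15.69, Scarna10 13.15, Scarna13 9.65 and Malat1 4.05. Rnu1a1 and Scarna10 had at most 1 count in each young male, so the size of their difference is not exact. The histone genes were at 0 in all young males and get no size, only their adjusted p for a higher change in males: H3c13 3.96e-05, H4c6 0.000575, Hist1h2ap 0.000791, H2ac15 0.00162, H2ac11 0.00204, H2ac4 0.00346 and H3c1 0.0039. Thermogenic genes also had positive differences, Ucp1 7.94, Dio2 5.04 and Cidea 3.75, and their highest values were in single young females. The mast cell genes went apart, with Cma1 at 1.51 and Kit at -1.18.

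Negative differences, with a lower change in males, were found for lymphoid genes (Cr2 -4.31, Ccl19 -2.75), for matrix and mural cell genes (Col18a1 -1.19, Notch3 -1.51) and for Cdkn1a (-1.39). They were also found for the clock genes Nr1d1 (-1.87) and Cry2 (-0.59), for the retinol carrier Rbp4 (-1.93), for Adora1 (-0.96), and for mt-Nd2 (-3.55). Foxo1, a transcription factor restrained by insulin, differed by -1.51, the chaperone regulator Bag3 by -2.07, the extracellular superoxide dismutase Sod3 by -2.06 and Anp32b by -2.31. Foxo1 was 91.1 to 109 CPM in young males and 26.2 to 42.1 CPM in the other 9 libraries, and Bag3 was 62.5 to 67.4 CPM in young males and 10.4 to 23.4 CPM elsewhere.

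Rpl10, a ribosomal protein gene (-2.45), and AC124742.1, an unnamed transcript chosen after its values were seen (adjusted p 0.0193, with no size because a group was at 0), divided the libraries by their share of non-whole values. AC124742.1 was at 0 in the 3 young females and in old female 3 and at 71.6 to 124 CPM in the other 8 libraries. Rpl10 was 62.9 to 82.4 CPM in those 4 libraries and 355 to 563 CPM in the others, and its female rise of 2.46 (adjusted p 0.006) came with a change of 0.26 in old female 3 (adjusted p 0.55).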

How the results depend on the processing

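The count of ageing genes was 4560 in females alone (2065 higher, 2495 lower), 2949 there with the share of non-whole values as a term (1531 and 1418), 1081 with old female 3 alone (726 and 355), and 4334 with an absolute log2 change of at least 1 required (2979 and 1355). The female counts come from fewer samples, and the last count from a stricter rule. With any 1 library left out it was 9330 to 11075 in all, with 4734 to 5933 higher and 4349 to 5142 lower, and the sex difference was 3109 to 3867 genes. The genotype difference was 0 to 4 genes with 1 library left out, 116 with DESeq2 and 2 without both libraries that hold most reproductive tract transcripts. The other counts stayed within 1.5 times.

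Of 144 named genes, 39 kept their sign and lost their call in females alone, 27 in males alone, 61 in females with the split by non-whole values as a term, 86 in old female 3 alone, and 13 in at least 1 fit with a library left out. Signs turned in females alone for Foxo1 (0.0084), Cma1 (-0.0787), Kit (0.17), Bag3 (0.19), Scarna13 (-0.23), Rnu1a1 (-0.49), Anp32b (0.43) and Scarna10 (-0.16). They turned with that split as a term for Mmp11 (-0.30), Cma1 (-0.0481), Rnu1a1 (-0.54) and Anp32b (0.44), in old female 3 for Cma1 (-0.18), Kit (0.0774), Scarna13 (-0.25), Rnu1a1 (-0.92), Anp32b (0.41) and Scarna10 (-0.14), and in males for Cr2 (-0.0068). The cause was not tested.

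Replicate numbers did not pair the samples: the correlation of deviations was -0.31 to 0.23 for same-numbered libraries. A replicate block called 10353 ageing genes (5239 higher, 5114 lower) and 3707 sex differences, and among named genes ended the calls of Oas1a and Igtp (adjusted p 0.0538 and 0.0636). Library kind as a term was not run, because it could not be fitted, and no male value exists within 1 kind. Depth limits the lowest genes: 3 counts stood for 0.0373 to 0.0984 CPM per library.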

Other observations

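The gene Ttn, which encodes the giant sarcomere protein titin, was 17.5, 119.5 and 89.3 CPM in old females and 22.6, 22.4 and 55.3 CPM in old males, against 4.99, 4.68 and 5.33 CPM in young females and 0.578, 0.795 and 0.156 CPM in young males. It was chosen after its values were seen. All 6 old libraries lay above all 6 young ones (log2 4.96, SE 0.69, adjusted p 1.82e-05 with edgeR), while 0 of 12 skeletal muscle markers were called over both sexes, with 1 lower in females and 1 higher in males. In nmrHAS2 white fat the same gene gave -0.02 (adjusted p 0.988), where 12 of the 12 muscle markers fell (median -4.69). With edgeR the difference in ageing between genotypes passed for no gene, and DESeq2 called 116.

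Stress and growth lists gave mixed counts, beside 25.1% of all genes that rose and 24.4% that fell over both sexes. Of 15 heat shock and chaperone genes 8 fell and 0 rose over both sexes, and 8 fell in males alone and 1 in females alone. Of 18 unfolded protein response genes 3 rose and 3 fell, shares below those of all genes. Pdia4, a protein folding enzyme, gave 0.52 (adjusted p 0.00385) and Ddit3, the stress factor CHOP, -0.55 (adjusted p 0.000671). Of 21 antioxidant genes 7 fell and 1 rose, and the peroxiredoxin gene Prdx1 went from 291 to 471 to 180.2 to 261 CPM without overlap (-0.81, adjusted p 2.38e-05). Of 20 proliferation genes 2 rose and 0 fell, a share of rises below that of all genes. S100b, which marks Schwann cells and is also made by adipocytes, fell from 3.28 to 7.54 to 0.288 to 1.86 CPM (-2.58, adjusted p 0.000617), while 3 of 9 nerve and Schwann cell markers fell.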
